A study of Rattus norvegicus with 2 samples.

Results

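C1q macrophages are described here in the zygomatic maxillary suture of 4-week-old rats, which joins the cheek bone to the maxilla by fibrous tissue. They were selected on measured values: at least 500 UMIs (molecules counted), 200 genes and under 25% mitochondrial UMIs in a cell, at least 10 UMIs of C1qa, C1qb and C1qc together, and Col1a1 and Col3a1 under 1% of UMIs. The rule found 62 cells among 9220 filtered cells. The distraction library, from sutures pulled for 7 days by a nickel-titanium spring (wire of 0.4 mm, 20 g at the start), gave 34 of 4037 cells. The sham library, from rats in which the holes were drilled and no spring was placed, gave 28 of 5183 cells. Both groups had the same anaesthesia and skin incision, and no transgene or strain is named in the labels. Each group is 1 library, how many rats were pooled in it is not stated in the labels, and no p-value between the groups is possible.

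C1q is the recognition part of the first complement component, built from the products of C1qa, C1qb and C1qc. It binds antibody complexes and dying cells, and tissue macrophages are a main source of it. In bone marrow and spleen, macrophages with the adhesion receptor Vcam1, the haemoglobin scavenger receptor Cd163 and the transcription factor Spic are known to surround developing red cells or to clear old ones. Macrophages also answer tissue injury with chemokines, which are secreted proteins that draw in other leukocytes.

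The chemokine genes Cxcl1 and Cxcl2 ranged widely between these cells, and the promoters below show what the letters before their starts share with those of Nfkbia and Vcam1. Of 18 genes sought in RefSeq's promoter table (build GRCr8, 300 bases each, 250 before the start and 50 after), 11 were matched. In all, 9 motif spellings were searched on both strands, and the one shown, a form of the sequence bound by NF-kB factors (GGGAA, any base, T, any base, then CC), was chosen after its matches had been seen. It was in 4 of the 11 promoters and in 1.36% of all 33365. Capitals mark the matches, and 2 overlapping ones, 1 on each strand, fall at bases 167 to 177 of Cxcl1. The builds differ, since the counts were made on Rnor_6.0.
Cxcl1 (chr14:17479272-17479571, minus strand): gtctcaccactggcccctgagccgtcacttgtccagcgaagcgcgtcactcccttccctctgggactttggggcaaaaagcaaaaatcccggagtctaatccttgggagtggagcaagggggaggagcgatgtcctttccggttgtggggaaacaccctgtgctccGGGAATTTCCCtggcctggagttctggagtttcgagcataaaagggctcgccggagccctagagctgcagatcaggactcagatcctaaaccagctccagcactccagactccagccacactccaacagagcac
Cxcl2 (chr14:17467206-17467505, minus strand): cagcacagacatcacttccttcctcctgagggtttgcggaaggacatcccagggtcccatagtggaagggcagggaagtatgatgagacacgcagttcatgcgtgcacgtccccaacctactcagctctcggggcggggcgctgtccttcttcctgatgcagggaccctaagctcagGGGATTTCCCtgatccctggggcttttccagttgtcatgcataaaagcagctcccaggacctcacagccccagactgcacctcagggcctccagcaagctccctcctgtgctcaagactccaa
Nfkbia (chr6:78597023-78597322, minus strand): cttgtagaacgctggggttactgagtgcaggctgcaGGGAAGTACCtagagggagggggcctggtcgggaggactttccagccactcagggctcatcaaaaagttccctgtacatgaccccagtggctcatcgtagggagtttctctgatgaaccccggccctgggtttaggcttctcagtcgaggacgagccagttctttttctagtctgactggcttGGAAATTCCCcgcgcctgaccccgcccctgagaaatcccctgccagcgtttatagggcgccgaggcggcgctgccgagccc
Vcam1 (chr2:206742734-206743033, minus strand): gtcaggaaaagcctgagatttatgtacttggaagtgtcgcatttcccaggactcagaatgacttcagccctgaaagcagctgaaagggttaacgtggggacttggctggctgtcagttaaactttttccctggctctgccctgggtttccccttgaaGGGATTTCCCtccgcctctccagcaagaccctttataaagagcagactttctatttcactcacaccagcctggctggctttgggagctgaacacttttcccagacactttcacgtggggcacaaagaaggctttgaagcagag
The motif was not found in these windows of C1qa, C1qb, Spic, Ccl7, Ccl24, Il1b and Cd163. A looser spelling, GGG and CC with any 5 bases between them, was in 9 of the 11 and in 47.3% of all promoters. Of 2 fully specified forms of the same site, each of which overlaps the looser ones, 1 was in 2 of the 11 (0.0749% of all) and the other in 1 (0.0719%). Among the other spellings, GAGGAA was in 4 (27.6% of all), GAGGAAGT in 1 (2.42%), TGANTCA in 1 (7.34%), TGANNNNGC in 4 (40.6%) and a longer form that contains it in 0 (0.312%). A match describes letters, not binding.

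C1q macrophages held 531459 UMIs after distraction and 316331 in sham, with medians of 15397.5 and 8290 UMIs a cell. The deepest cell had 38451 and 44222 UMIs, so single cells weigh heavily in each sum. Cells just inside the threshold had 14, 18 and 18 C1q UMIs after distraction and 10, 12 and 14 in sham, and those just outside had 9, 5 and 4 and 9, 6 and 4. No C1q UMI was counted in 95.2% of distraction and 97.4% of sham cells. Collagen excluded 0 cells. In all, 22 barcodes occurred in both deposited libraries, 19 of them after filtering, and 1 belonged to a C1q macrophage.

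The label was checked against markers. The selecting genes had CPM (a gene's share of all UMIs of the class, on the usual CPM scale) of 3404 and 3224 for C1qa, 2512 and 2589 for C1qb and 4053 and 3933 for C1qc, in distraction and sham in that order. C1qa ranged from 6 to 169 UMIs a cell after distraction (median 41.5) and from 2 to 155 in sham (median 27). Csf1r, the receptor for the main macrophage growth factor, was not part of the rule and had a UMI in 30 of 34 and 20 of 28 cells, at 587 and 468 CPM. Mrc1, the mannose receptor, had one in 32 of 34 and 22 of 28 cells, at 736 and 635 CPM. The monocyte, B-cell and neutrophil lists were low beside their own classes. The monocyte list summed to 220 and 104 CPM, against 4967 and 5003 in monocytes, and the B-cell list to 73.4 and 256, against 3587 and 3960 in B-lineage cells. Fibroblast markers summed to 13.2 and 205 CPM and osteoblast markers to 378 and 708. Osteoclast markers summed to 455 and 411 and megakaryocyte markers, which include Pf4, to 1539 and 1625. For these cell types no class was formed, so the sums have no reference. The neutrophil list of 10 genes summed to 1125 and 1786 CPM, against 190214 and 177932 in neutrophils, with Csf3r at 0. Vcan and Fn1 also chose the monocytes, Cd79b the B-lineage cells, and S100a8 and S100a9 the neutrophils. The values of these lists in their own classes are therefore in part set by the class rules. Of 10 endothelial and mural markers 9 were at 0, among them Cdh5, Kdr and Vwf. Of 9 dendritic markers in the tables, 7 were at 0, including Flt3, Clec9a and Ccr7, and Cd3e, Cd3d and Cd3g were at 0 as well.

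Red-cell genes were the exception. By the rule on mixed cells (a marker list at 20% or more of its median share in its own class), 7 members in each library carried erythroid content, 1 in each carried B-cell content and 0 carried neutrophil content. The B-cell call after distraction rests on a cell of 916 UMIs. The erythroid list summed to 55901 and 58989 CPM. Globin took at least 5% of UMIs in 8 distraction and 9 sham cells, with a highest share of 29.9% and 62.2%, while the medians were 0.121% and 0.101%. The sham library also held 1 member with 0.525% of UMIs from fibroblast and osteoblast genes, against 0.0638% in the next. No doublet caller was run, and the part of joined cells in the results was not tested.

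C1q macrophages made up 0.842% of distraction cells (exact 95% interval 0.584 to 1.17) and 0.540% of sham cells (0.359 to 0.780). The ratio was 1.56 with an interval of 0.918 to 2.67, which includes 1. Set against C1q macrophages and monocytes together, the shares were 14.5% (34 of 235) and 13.9% (28 of 202), a ratio of 1.04. Every interval given here reflects counting error and no variation between animals. The intervals of gene ratios also treat each UMI as independent, although many UMIs of a gene can come from 1 cell. They therefore leave out variation between cells as well.

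The cells expressed the haemoglobin scavenger receptor gene Cd163, and also Vcam1, Cd5l and Spic, which were listed with genes of haem and iron recycling. Vcam1 ranged from 0 to 88 UMIs a cell after distraction (median 8.5) and from 0 to 109 in sham (median 9.5). It had a UMI in 26 of 34 and 23 of 28 cells, so it was absent from a minority in both libraries. Cd163 had 0 to 51 UMIs (median 4) and 0 to 25 (median 3). Cd5l, which encodes a secreted macrophage survival protein, had 0 to 144 (median 3) and 0 to 76 (median 2.5). Spic, a factor required for red pulp macrophages, had 0 to 27 (median 3.5) and 0 to 21 (median 1). Raw medians follow depth, which differed between the libraries (medians of 15397.5 and 8290 UMIs a cell). Scaled to each cell's UMIs, the medians were 741 and 1932 CPM for Vcam1 and 330 and 439 for Cd163. They were 519 and 458 for Cd5l and 199 and 137 for Spic. Values in the 2 libraries overlapped for each of these genes.

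Hmox1, the enzyme that opens the haem ring, ran from 0 to 686 UMIs (median 113) and from 0 to 393 (median 47). It was present in 33 of 34 and 26 of 28 cells, at 10592 and 7593 CPM. Scaled to each cell's UMIs, its median was 7145 and 5654 CPM. Thinned to 5000 UMIs, it had a UMI in all 29 and 20 members and in 29.5% and 22.2% of B-lineage cells. Fth1, the ferritin heavy chain, was at 9365 and 9174 CPM. Slc40a1, which encodes the iron exporter ferroportin, had 0 UMIs in members and 1 in all cells of the tables. After thinning 29 distraction and 20 sham members of sufficient depth to 5000 UMIs, Vcam1 had a UMI in 65.5% (exact interval 45.7 to 82.1) and 70.0% (45.7 to 88.1) of members. In B-lineage cells thinned in the same way it had one in 0 of 332, which allows a share of up to 0.904%, and in 2 of 505 (0.396%). The unthinned shares correspond to the counts of cells given above.

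**Figure D1:**
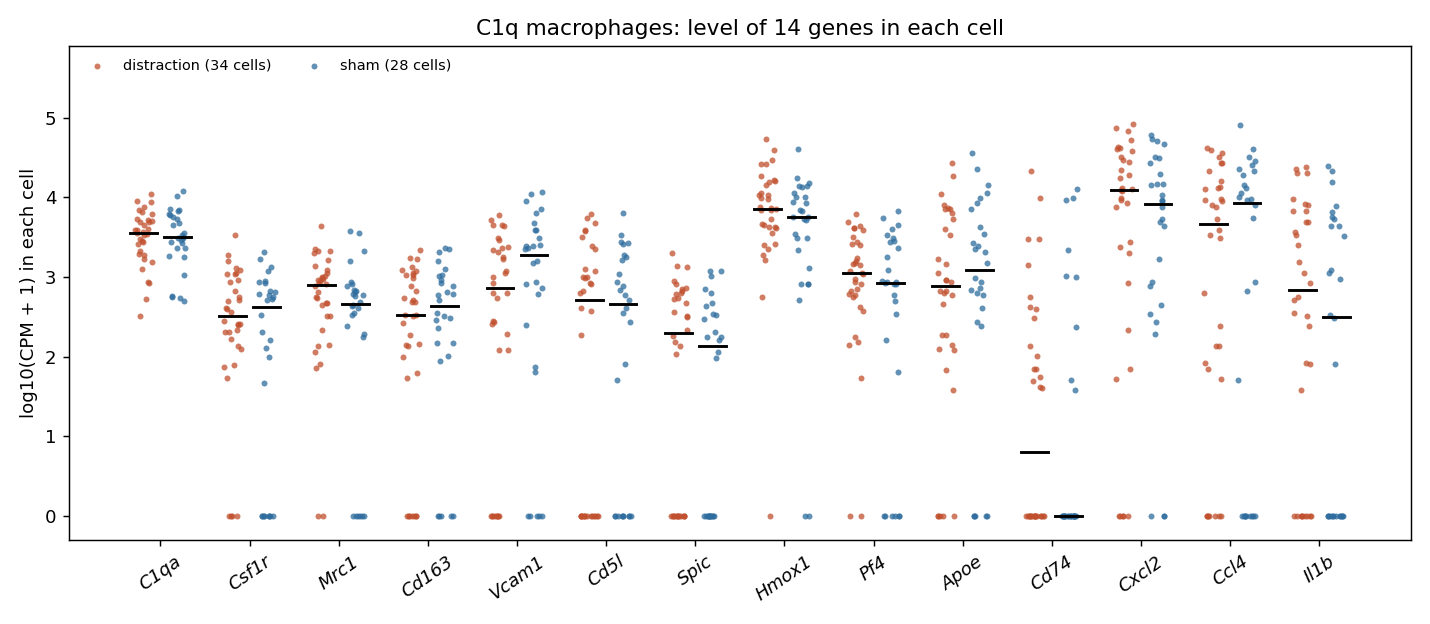
Each point is 1 cell, with log10(CPM + 1) on the vertical axis, 14 genes on the horizontal axis, distraction in red, sham in blue and the median as a black line. Hmox1 is present in 33 of 34 and 26 of 28 cells, while Cd74 is at 0 in most sham cells and the chemokine genes spread over the whole axis.

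Chemokine and inflammatory genes stood at high and uneven levels. Cxcl2, which attracts neutrophils, ranged from 0 to 1484 UMIs a cell after distraction (median 187.5) and from 0 to 831 in sham (median 54.5). Its summed levels were 20935 and 19119 CPM. Cxcl1 ranged from 0 to 1024 (median 81.5) and from 0 to 892 (median 27.5). Ccl4, an attractant of monocytes and T cells, ranged from 0 to 847 (median 69) and from 0 to 789 (median 43.5), and Ccl3 from 0 to 878 (median 28) and from 0 to 777 (median 14). Il1b, the interleukin 1 beta gene, ranged from 0 to 592 (median 10) and from 0 to 339 (median 2.5). These raw medians follow depth, which was 15397.5 and 8290 UMIs a cell at the median. Scaled to each cell's UMIs, the medians were 12231 and 8301 CPM for Cxcl2 and 4424 and 4827 for Cxcl1. They were 4667 and 8550 for Ccl4, 2932 and 2604 for Ccl3 and 703 and 317 for Il1b. The ranges of both libraries overlapped from 0 upwards. Thinned Cxcl2 had a UMI in 86.2% and 90.0% of members, but also in 32.5% and 31.1% of B-lineage cells, and whether free RNA accounts for these was not tested. Tnf had 0 UMIs in members and 10 in all cells.

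The comparison of distraction with sham asks which genes of the C1q macrophages differ after 7 days of pulling. Of 2844 genes measured (at least 50 CPM in 1 library and 30 UMIs over both), 134 were past 2-fold higher after distraction (4.71%) and 87 past 2-fold lower (3.06%), both with every cell and without the gene's highest cell in each library. The median log2 ratio was 0.03, and 71.0% of the genes lay within 1.5-fold. Of the 87 lower genes, 20 had at least 50% of their sham UMIs in 1 cell. Without the 16 mixed cells, 149 and 73 genes were past 2-fold, and 86 and 32 of them were among the 134 and 87.

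**Figure D2:**
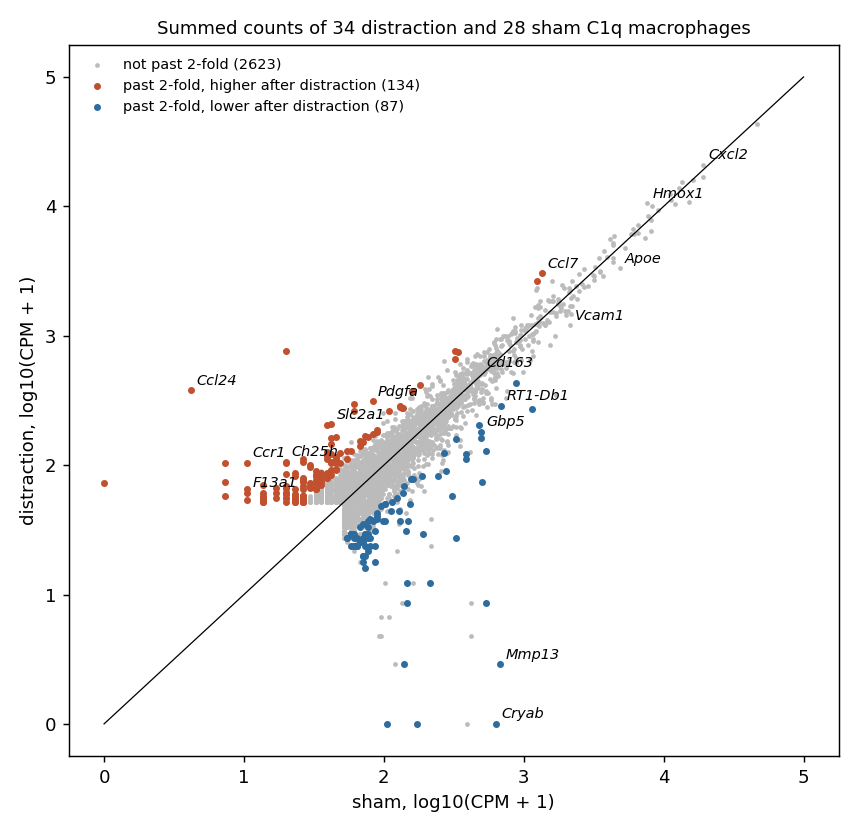
Each point is 1 of 2844 genes, with log10(CPM + 1) of the summed counts of 28 sham cells on the horizontal axis and of 34 distraction cells on the vertical axis, and the line marks equal levels. The 134 genes higher after distraction (red) include Ccl24 and Slc2a1, the 87 lower genes (blue) include Cryab and Mmp13, and Cxcl2, Hmox1 and Cd163 lie near the line.

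Ccl24, which encodes an attractant of eosinophils, had 202 UMIs in 9 of 34 distraction cells and 1 UMI in 28 sham cells. The ratio was 120 (21.3 to 4772), and 50% of its UMIs were in 1 cell. Further genes past 2-fold were the glucose transporter Slc2a1, the receptor Ccr1, the sterol enzyme gene Ch25h and the growth factor gene Pdgfa. Slc2a1 had 109 UMIs in 18 cells against 13 in 6, a ratio of 4.99 (2.80 to 9.67). Ccr1, a receptor for Ccl3 and related chemokines, had 55 UMIs in 9 cells against 3 in 2, a ratio of 10.9 (3.54 to 54.5), with 60% in 1 cell. Ch25h had 56 against 6 UMIs and a ratio of 5.56 (2.40 to 15.8). Pdgfa was in 20 of 34 and 11 of 28 cells, with 165 against 26 UMIs and a ratio of 3.78 (2.49 to 5.95). All of these stayed past 2-fold without mixed cells, with cells weighed equally and at C1q thresholds of 5 and 20 UMIs, although the log2 ratio of Slc2a1 went from 2.29 to 1.32 at the threshold of 5.

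The rule of size named further genes, several with few UMIs. Ccl5 had 38 UMIs in 3 distraction cells and 0 in sham, at least 7.54-fold higher against a floor of 3 counts over the sham cells. Plet1 had 32 UMIs in 8 cells against 4 in 1, Fxr1 37 in 19 against 4 in 2, and Mbp 29 in 13 against 5 in 3. LOC108348108 had 405 UMIs in 11 cells against 6 in 3, and AABR07017902.1 had 30 in 9 against 2 in 2. LOC108348108 was also higher after distraction in all other filtered cells, at 622 against 175 CPM. Ndufaf6 had 55 UMIs in 6 cells against 2 in 2, and its log2 ratio of 3.83 became -0.23 without mixed cells. Dedd2 had 17 UMIs in each library and was named only because all 17 in sham came from 1 cell.

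The lowest genes mostly came from 1 sham cell. Cryab, a small heat shock protein gene, had 201 UMIs in sham, 99.5% of them in 1 cell, and 0 after distraction. Mmp13, a collagenase gene, had 213 against 1 UMI with 96.2% in 1 cell, and Tfpi2 169 against 4 with 94.7%. Igfbp7, Col5a3 and Ifitm3 had 98.1%, 93.9% and 91.3% of their sham UMIs in 1 cell. Without the sham member with stromal genes, the log2 ratio of Cryab went from -9.31 to -2.13 and that of Mmp13 from -7.87 to -3.28. That of Ifitm3 went from -4.10 to -0.77. This member held 200 of the 201 sham UMIs of Cryab, 205 of 213 of Mmp13 and 160 of 169 of Tfpi2. It also held 53 of 54 of Igfbp7, 31 of 33 of Col5a3 and 42 of 46 of Ifitm3. Without it each of these genes had under 30 UMIs over both libraries, so all of these calls ended and the remaining ratios rest on few UMIs. Timp1, Id3, Ereg and Il6, the other genes at this end, had 73.9%, 73.1%, 59.1% and 68.0% in 1 cell. Without the member with stromal genes, Timp1, Id3 and Ereg also had under 30 UMIs over both libraries, so these calls ended too. Il6 was at a log2 ratio of -2.42, and at -0.88, short of 2-fold, without that member.

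Among the gene lists, chemokines had 4 of 17 measured genes past 2-fold higher (Ccl2, Ccl5, Ccl7 and Ccl24) and 0 lower. Over all genes measured, 4.71% were higher and 3.06% lower. The median log2 ratio of the chemokine list was -0.02, beside 0.03 over all genes measured. Ccl2 and Ccl7, attractants of monocytes, had ratios of 2.13 (1.90 to 2.39) and 2.25 (2.02 to 2.50). Ccl2 was in 25 of 34 and 16 of 28 cells and Ccl7 in 18 and 12, but their UMIs were uneven. The highest cell held 20.5% and 28.9% of the UMIs of Ccl2 and 23.8% and 28.3% of those of Ccl7. A distraction cell with only 18 C1q UMIs held 290 of 1413 UMIs of Ccl2 and 318 of 1611 of Ccl7. At a C1q threshold of 20 UMIs, which leaves that cell out, Ccl2 and Ccl7 were both short of 2-fold. The log2 ratio of Ccl7 was then 0.87. The list for repair and alternative activation had 5 of 14 higher (Tgfbi, Pdgfa, F13a1, Il1rn and Ccl24), 1 lower (Tgfb1) and a median of 0.17. Tgfb1 rested on 14 against 17 UMIs, with a ratio of 0.490 (0.224 to 1.06), and was short of 2-fold without mixed cells (log2 ratio -0.94). Of the higher genes, F13a1 rested on 32 against 3 UMIs, and Il1rn, which blocks interleukin 1, had 349 against 101. The log2 ratio of Il1rn was 1.04, and 0.76 without mixed cells.

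MHC class II genes had 0 of 6 higher, 2 lower (RT1-Da and RT1-Db1) and a median of -1.01. RT1-Db1 had 0 to 90 UMIs a cell after distraction and 0 to 99 in sham, with medians of 0 in both. It had 288 and 692 CPM, but 58.8% and 45.2% of its UMIs were in 1 cell each, and with cells weighed equally its log2 ratio went from -1.26 to -0.35. That of RT1-Da went from -1.03 to -0.22. Cd74, the class II chaperone, was in 17 of 34 and 9 of 28 cells.

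Lists with 0 genes past 2-fold were scavenger and pattern receptors (0 of 11), apoptotic cell uptake (0 of 8), haem and iron recycling (0 of 12), lysosome (0 of 28), complement (0 of 7) and osteoclast lineage (0 of 4). Without mixed cells, apoptotic cell uptake had 1 lower (Lrp1, log2 ratio -1.07), haem and iron recycling 1 lower (Vcam1, -1.20) and lysosome 1 higher (Lyz2, 1.06). Over all genes measured, 4.71% were higher and 3.06% lower, so 0 or 1 call in a list this short says little about the list. The median log2 ratio of the 28 lysosome genes was 0.05 with every cell. Ctsb, a cathepsin, was at 6110 and 6104 CPM, and Psap, which encodes activators of lipid breakdown, at 6236 and 6550. Vcam1 was lower after distraction at a ratio of 0.567 (0.508 to 0.633) with every cell, short of 2-fold, and past it without mixed cells. Interferon response genes had 1 of 12 lower (Gbp5, 96 against 157 UMIs), and matrix degradation 1 of 8 higher (Adam17) and 3 lower (Mmp13, Mmp19 and Timp1). Without the sham member with stromal genes, 5 genes of the matrix list were measured and 0 were called lower, while the log2 ratios of these 3 were -3.28, -1.37 and -1.76. Inflammatory cytokines had 1 of 10 higher (Il1rn) and 1 lower (Il6). Without the sham member with stromal genes, Il6 was not called lower, nor was Id3 of the transcription factor list below. The remaining lists had 1 gene higher each: Ch25h of 15 lipid genes, Ccl24 of 11 resident macrophage genes, Nr4a1 of 13 transcription factors (a log2 ratio of 1.62, and -0.093 without mixed cells) with Id3 lower, Pdgfa of 7 angiogenic factors with Tgfb1 lower, Dnajb1 of 14 stress genes, Cdk1 of 7 proliferation genes, Slc2a1 of 10 glycolysis genes and Ccr1 of 12 receptors.

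C1q macrophages were then set against 375 monocytes of the same libraries, chosen as cells with Csf1r, at least 5 UMIs of Vcan and Fn1 and under 10 C1q UMIs. Counts were summed per class and library and tested with edgeR's quasi-likelihood test with the library as a block. The 2 libraries are the replicates, and nothing says how many rats they came from. Of 8690 genes tested, 1279 were higher in C1q macrophages (14.7%) and 1020 lower (11.7%) at an adjusted p under 0.05 and 2-fold, leaving out the genes that chose the classes.

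Vcam1, Cd163 and Cd5l were among the genes with the highest folds. Vcam1 had 1314 UMIs in C1q macrophages and 0 in monocytes, at least 3152-fold higher against a floor of 3 counts over the monocytes (edgeR adjusted p = 8.74e-10). Cd163 had 430 against 2 UMIs, a ratio of 1547 (426 to 12816). Cd5l had 844 against 3, a ratio of 2024 (690 to 9836). The direction was the same in each library: Cd163 was at 517 and 490 CPM in C1q macrophages and 0.294 and 0.371 in monocytes of the distraction and sham libraries. Siglec1, a receptor for sialic acid, had 66 UMIs against 0 (at least 158-fold), Clic2 90 (216-fold), Aebp1 79 (189-fold), Asb2 53 (127-fold) and Heph, an iron oxidase gene, 50 (120-fold). By DESeq2, Clic2 (adjusted p = 0.0717) and Siglec1 (adjusted p = 0.0814) did not pass, with log2 folds no smaller than the 10.85 and 10.45 by edgeR. Gpd1, of glycerol metabolism, had 426 against 2 UMIs. Igfbp4 had 197 against 1, with 78.5% of its sham UMIs in 1 cell.

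The list of apoptotic cell uptake had 10 of 15 genes higher and 0 lower, with a median log2 of 2.34 beside -0.10 over all genes. Axl and Mertk, receptors that bind dying cells through bridging proteins, had log2 folds of 9.24 ± 0.43 (SE) and 8.48 ± 0.76. Resident macrophage genes had 12 of 14 higher and 0 lower (median 4.02), with Folr2, a folate receptor, at 8.54 ± 0.33 and Igf1 at 6.34 ± 0.31. Haem and iron recycling had 7 of 13 higher and 0 lower, including Spic at 6.57 ± 0.28. Hmox1, at 0.54 ± 0.19, was short of 2-fold. Tfrc, the transferrin receptor, was among the 7, and its level was 1365 CPM in globin-rich and 154 in other distraction members.

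Lysosome genes had 14 of 28 higher and 1 lower, and lipid handling genes 11 of 16 higher and 1 lower. Apoe, a lipid carrier, had 3317 and 4862 CPM in C1q macrophages against 10.3 and 10.8 in monocytes (log2 8.74 ± 0.25). Fabp4, a fatty acid binding protein gene, was at 5.95 ± 0.41 and Trem2, a lipid receptor, at 4.33 ± 0.30. The single lower lysosome gene was Lyz2, which encodes lysozyme, at -3.63 ± 0.32.

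Interferon response genes had 13 of 18 higher and 0 lower, and chemokines 9 of 15 higher and 0 lower. Ccl4 was at 4.17 ± 0.36, Ccl7 at 2.94 ± 0.64 and Cxcl1 at 2.60 ± 0.57. Cxcl2 (0.44 ± 0.37, adjusted p = 0.399) and Ccl3 (-0.43 ± 0.24, adjusted p = 0.203) did not pass the edgeR test. Il1b, at -0.70 ± 0.17, was short of 2-fold.

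Lower genes included Rnase2 and Trem1, an amplifier of inflammatory signals, with 1036 and 849 UMIs in monocytes and 0 in C1q macrophages (at least 48.0-fold and 39.3-fold lower). Thbs1, F5 and F2rl2 were at 0 as well, between at least 33.9-fold and at least 34.8-fold lower. Glycolysis and hypoxia genes had 1 of 17 higher and 8 lower, among them Slc2a1, Pgk1, Eno1, Pkm and Ldha, with a median of -1.67. Proliferation genes had 0 of 15 higher and 5 lower, and 10 lower without mixed cells.

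Other lists had 9 of 16 higher and 1 lower (repair), 6 and 2 of 12 (angiogenic factors), 6 and 3 of 16 (transcription factors), 5 and 3 of 15 (scavenger receptors), 5 and 3 of 11 (complement), 6 and 0 of 16 (stress), 4 and 3 of 13 (receptors), 4 and 1 of 10 (osteoclast lineage), 3 and 1 of 14 (matrix degradation), 2 and 1 of 14 (inflammatory) and 0 and 0 of 4 (class II). In the repair list, Pdgfb and Pdgfa were at 6.21 ± 0.41 and 6.36 ± 0.66, and F13a1 was lower at -1.24 ± 0.41. In the complement list, Cfd (factor D) and Cfp (properdin) were among the higher genes, while C3, C5ar1 and Cfb were lower. Acp5, one of the osteoclast genes, had a UMI in 48.3% and 55.0% of thinned members and in 41.3% and 48.7% of B-lineage cells, so these shares do not set members apart from B-lineage cells. Its level was 405 and 354 CPM in members and 9.40 and 9.28 in monocytes.

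**Figure D3:**
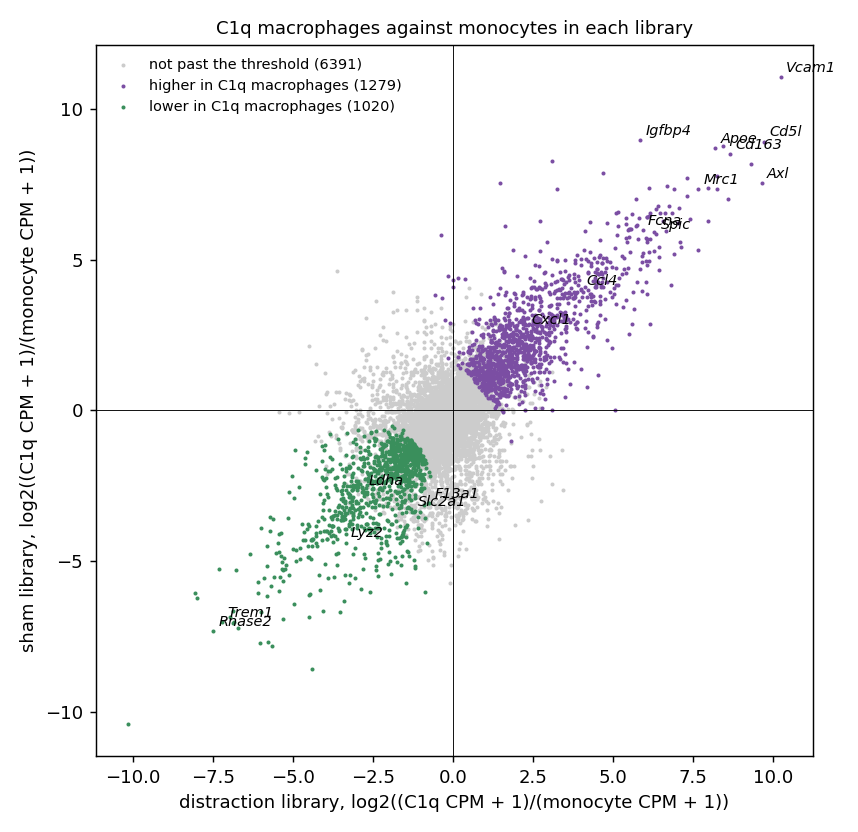
Each point is 1 of 8690 genes, none of which chose the classes, with the log2 ratio of C1q macrophages to monocytes (1 CPM added to each) in the distraction library on the horizontal axis and in the sham library on the vertical axis. The 1279 higher genes (purple) and 1020 lower genes (green) lie mostly in the upper right and lower left, with Vcam1 at the top right and Lyz2, Trem1 and Rnase2 at the lower left.

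Against 104 class II cells (at least 1% of UMIs from Cd74 and RT1 class II genes, no Cd79b), 1251 genes were higher in C1q macrophages (14.4%) and 800 lower (9.21%) in the same fit. Haem and iron genes had 12 of 13 higher and 0 lower, here including Hmox1 at 2.83 ± 0.20 and Fth1 at 1.46 ± 0.17. Lysosome genes had 25 of 28 higher and 0 lower, and class II genes outside the rule 0 of 4 higher and 4 lower. Rarres1, Cd5l and Fstl3 had 1050, 844 and 756 UMIs against 0 (at least 275-fold, 221-fold and 198-fold higher), although 41.5% of the sham and 48.9% of the distraction UMIs of Fstl3 were in 1 cell each. Cd163, Gpd1, Spic, NEWGENE_620180, Itgb5 and F3 were at 0 in class II cells too. Lower genes included Gprc5a, Kdr, Traf4, Timd2 and Padi2, with 83, 81, 71, 57 and 46 UMIs in class II cells and 0 in C1q macrophages. Clec9a, a marker of cross-presenting dendritic cells, had 40 against 0 UMIs, at least 17.0-fold lower.

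The C1q macrophages differed among themselves along several lines. These correlations are over the 49 members thinned to 5000 UMIs, and they are descriptions across cells of 2 libraries that share depth and free RNA. The 4 leading genes were chosen after 7 had been looked at in all 62 cells, and the pairs after seeing the data. Vcam1 went with Cd163 (r = 0.73), Fcna, a ficolin of the lectin pathway (0.74), Pld3 (0.71), Cfp (0.64) and Axl (0.60), and against Lyz2 (-0.60). In distraction and sham taken alone, r with Cd163 was 0.74 and 0.75. Pf4, a platelet chemokine gene also used by macrophages, went with Apoe (0.72), Ctsb (0.60), Mrc1 (0.56) and Trem2 (0.54). Vcam1 and Pf4 had r = -0.06.

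Cd74 went with RT1-Db1 (0.88) and Lyz2 (0.60), and against Cfd (-0.54) and Fcna (-0.49). The chemokine genes were high in the same cells, with r = 0.84 for Cxcl1 and Cxcl2, 0.85 for Ccl3 and Ccl4 and 0.78 for Cxcl2 and Ccl3. Hba-a2 went with the red-cell membrane gene Slc4a1 (0.91) and with Vcam1 at only 0.18 (0.33 in distraction and 0.0014 in sham).

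**Figure D4:**
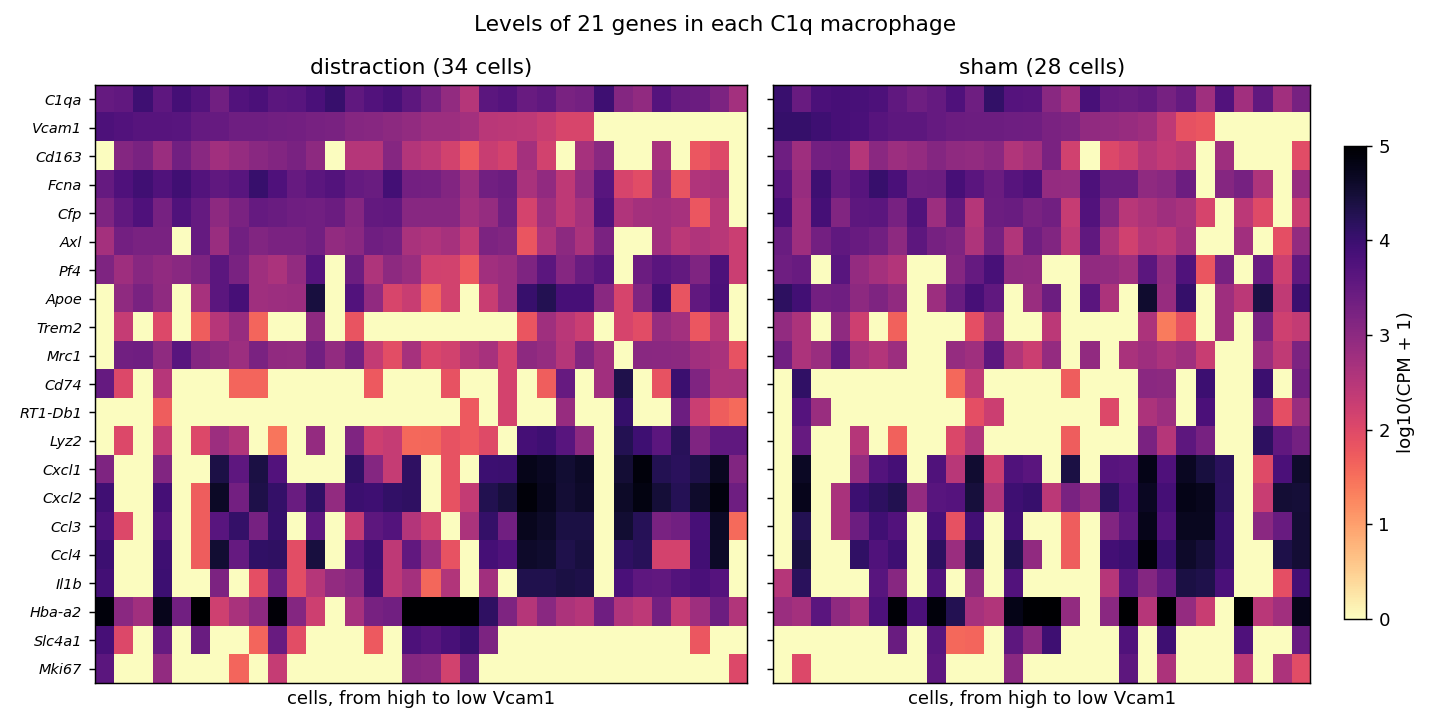
Columns are the 34 distraction and 28 sham cells, ordered from high to low Vcam1, rows are 21 genes, and colour is log10(CPM + 1) from light (0) to dark (5). Fcna, Cfp and Axl are darkest where Vcam1 is high, and Cxcl1, Cxcl2, Ccl3 and Ccl4 are dark in the same cells as each other.

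Members with at least 5% globin UMIs, a split made after seeing the data, carried other red-cell genes too. In CPM of the UMIs outside red-cell genes, Slc4a1 stood at 5905 in globin-rich and 60.3 in other distraction members, and at 6524 and 10.1 in sham. C1qa was at 3693 and 3574, and 2892 and 3698, so the selecting gene was present in both kinds of cell. The proliferation gene Mki67 had a UMI in 7 of 8 and 6 of 9 globin-rich members, against 2 of 26 and 2 of 19 others. The proliferation genes Top2a and Pcna did not follow it in both libraries. Top2a was at 234 CPM in globin-rich and 2.74 in other members after distraction, but at 20.0 and 106 in sham. In sham it had a UMI in 2 of 9 globin-rich and 4 of 19 other members. Of its 23 sham UMIs, 16 were in the member with B-cell content, which was not globin-rich, so the sham values rest mostly on 1 cell. Pcna was at 715 and 699 after distraction and at 400.3 and 420 in sham. Trem2 and Apoe were lower in globin-rich members in both libraries, at 21.9 against 228 and 80.1 against 218 for Trem2, and 431 against 4674 and 2962 against 6283 for Apoe. Vcam1 was at 2219 against 924 after distraction and at 1441 against 2676 in sham, so the direction of its sums differed between the libraries, which was not tested. The median cell was at 1732 against 277 after distraction, but at 2422 against 2429 in sham, where the kinds were nearly equal. The globin-rich sham sum includes the cell of 44222 UMIs, which had 11 Vcam1 UMIs.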

How the data were processed

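Single cells of 2 libraries, 1 of distraction and 1 of sham, were trapped on a BD Rhapsody cartridge. Per the file headers, the authors' counts of molecules per gene and cell, whole and unscaled, came from BD's WTA Rhapsody pipeline, version 1.5.1. The submitters' processing notes name the build Rnor_6.0 and Seurat 3.6, without their roles, and no source at hand states the rule for calling cells. The deposited tables held 4889 cells with 32078960 UMIs and 5351 cells with 29924342 UMIs. A gene listed in 1 table counted as 0 in the other.

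The members and lists were chosen with earlier results of these data known. Gene ratios are summed UMIs scaled to the class total, with exact 95% intervals for 2 Poisson counts and 1 CPM added for log2 values. Shares have Clopper-Pearson intervals. Named genes are the 10 highest and 10 lowest by log2 ratio without each library's highest cell, at least as high as in other cells and not mitochondrial, ribosomal, globin or immunoglobulin genes; in the class tests the 10 highest and 5 lowest past the threshold; and from each list up to 5 by level and 3 by ratio. Other genes were named after their values were seen, and some genes that the rule picks are not reported here. Classes were compared with edgeR 4.0.16 (quasi-likelihood, TMM, Benjamini-Hochberg over all genes tested), fitted over C1q macrophages, monocytes, neutrophils and class II cells, and DESeq2 1.42.0 was an alternative. Alternatives changed the C1q threshold, depth, scaling, filters and mixed cells.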

Additional observations from a re-analysis of the deposited data

How the results depend on the processing

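With 1 library a group there is no check between replicates, and leaving out a library left no residual degrees of freedom in the class test, so it was not run. No paired analysis was possible because each group has 1 library. The share ratio of 1.56 ranged from 1.37 to 1.67 over 8 alternatives. With cells weighed equally, 213 genes were higher after distraction and 133 lower, of which 87 and 47 were among the 134 and 87. With every cell only, 174 were lower, and at 1.5-fold 360 were higher and 254 lower. Among the named genes past 2-fold, 2 turned without mixed cells: Ndufaf6 to a log2 of -0.23 and Nr4a1 to -0.093. Of 33 named genes past 2-fold, 23 stayed so in 5 alternatives of cells. That count used the ratio alone, without the minimum of 50 CPM and 30 UMIs. A gene at 0 in 1 library passes it at any count in the other. The 23 include Cryab, Igfbp7, Col5a3 and Ccl5, which were at 0 in 1 library, and Mmp13, so the count overstates how many calls hold. Leaving out the sham cell with stromal genes, chosen after seeing the data, gave 148 and 63. Of these, 117 and 52 were among the 134 and 87. Leaving out globin-rich cells, also chosen so, gave 146 and 74, of which only 79 and 27 were among the 134 and 87. Against monocytes, DESeq2 called 1312 and 715 genes, and against class II cells 1215 and 634. All other counts stayed within 1.5 times. Of 120 alternative values of the 15 genes named against monocytes, 118 passed the threshold, the exceptions being Clic2 (adjusted p = 0.0717) and Siglec1 (0.0814) by DESeq2. Depth limits genes with few UMIs in 62 cells.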
